A study of Rattus norvegicus with 6 samples.

Results

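The genes described here are targets of the transcription factor NRF2, the product of Nfe2l2, in rat (Rattus norvegicus) liver. The list named 9 genes, namely Akr7a3, Osgin1, Ephx1, Nqo1, Slc7a11, Gclc, Gclm, Txnrd1 and Srxn1, and each was matched by its symbol to a gene of the expression table. Of these, 8 were matched among 32623 genes in all, and Srxn1, the sulfiredoxin gene, was not matched by its symbol or an older one and is not analysed here. The genes were chosen from a comparison of the same libraries, so their levels and changes are a description and no test is drawn from them. RNA sequencing was done on 2 groups of 3 libraries. Libraries HCC 1 to 3 came from the untreated control group of a hepatocellular carcinoma (HCC) study, and libraries TAE 1 to 3 from the group that had transarterial embolization (TAE), in which the arteries feeding a liver tumour are blocked. The labels name the tissue only as liver in both groups. The strain, age, the way tumours were raised, the time after embolization and whether tumour or adjacent liver was taken are not stated in the sources used here. The replicates are called biosamples, and nothing says that each was a separate animal, so every p-value measures the spread between these samples, which may be technical.

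NRF2 is held low in resting cells by KEAP1, an adaptor that hands it to a CUL3 ubiquitin ligase for destruction. Oxidants and electrophiles modify KEAP1, and NRF2 then accumulates, pairs with a small MAF protein and binds antioxidant response elements near its target genes. In liver these targets make glutathione, keep thioredoxin reduced and clear reactive aldehydes, epoxides and quinones, and the pathway is often switched on in liver carcinogenesis.

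The stretches of DNA just before the starts of 4 of the genes are printed here because Akr7a3, Osgin1 and Ephx1 had the lowest changes of the list and Gclm is a textbook NRF2 target of the glutathione pathway. Each is the 250 bases before a RefSeq start in the GRCr8 assembly, 5′ to 3′ on the strand of the gene, and capitals mark a match to TGACNNNGC or TGAGNNNGC on either strand, the core letters of the antioxidant response element. They lie at chr5:156876471-156876720 (Akr7a3, plus strand), chr19:64393651-64393900 (Osgin1, plus strand), chr13:95263118-95263367 (Ephx1, minus strand, one of its 2 starts) and chr2:213031885-213032134 (Gclm, plus strand).
Akr7a3: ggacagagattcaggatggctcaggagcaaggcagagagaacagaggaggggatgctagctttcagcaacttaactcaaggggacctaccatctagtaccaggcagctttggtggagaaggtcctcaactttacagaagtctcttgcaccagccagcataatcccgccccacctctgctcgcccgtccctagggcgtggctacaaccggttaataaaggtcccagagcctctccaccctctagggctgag
Osgin1: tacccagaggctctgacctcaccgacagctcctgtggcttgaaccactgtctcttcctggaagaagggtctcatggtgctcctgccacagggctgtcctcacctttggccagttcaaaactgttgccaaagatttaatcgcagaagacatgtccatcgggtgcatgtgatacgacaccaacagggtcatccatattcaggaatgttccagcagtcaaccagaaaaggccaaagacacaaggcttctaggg
Ephx1: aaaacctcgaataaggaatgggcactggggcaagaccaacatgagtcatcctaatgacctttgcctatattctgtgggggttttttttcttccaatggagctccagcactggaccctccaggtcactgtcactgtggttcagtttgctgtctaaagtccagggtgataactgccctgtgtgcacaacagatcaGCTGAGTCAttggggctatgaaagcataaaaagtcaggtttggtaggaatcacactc
Gclm: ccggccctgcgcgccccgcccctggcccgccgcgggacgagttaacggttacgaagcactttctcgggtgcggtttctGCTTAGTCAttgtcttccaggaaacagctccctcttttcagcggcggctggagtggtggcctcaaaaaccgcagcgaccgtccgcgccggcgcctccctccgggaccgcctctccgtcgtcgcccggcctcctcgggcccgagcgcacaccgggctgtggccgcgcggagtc
The Gclm stretch holds TGACTAAGC, read on the opposite strand, 172 bases before the start, and the Ephx1 stretch holds TGACTCAGC, also on the opposite strand, 57 bases before the start. The Akr7a3 and Osgin1 stretches hold no match, which says only that these letters are not in this window. All 9 genes had a promoter in RefSeq, 11 stretches in total because Ephx1 and Txnrd1 have 2 starts each, and 4 of the 11 held a match. The Ephx1 stretch printed is the one with a match, and the stretch of its other start held none. The same was true of the other start of Txnrd1. The other matches were TGACAAAGC at 78 bases before a start of Txnrd1, and TGAGTCGGC at 118 and TGAGTTTGC at 17 bases before the start of Srxn1. Among all 33469 stretches of the same length, 7635 (22.8%) held a match, 10.1% to the first motif and 14.2% to the second. The letters of a match are a description and do not show a bound site.

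Levels are given as FPKM, the deposited count scaled to exon length and to the sum of counted reads, so that genes can be compared with each other. Akr7a3 encodes aflatoxin aldehyde reductase, which turns the dialdehyde of aflatoxin into an alcohol. It stood at 25.9, 21.1 and 24.7 FPKM in HCC 1 to 3 and at 4.58, 6.32 and 3.35 FPKM in TAE 1 to 3. The groups were far apart, with the highest TAE library well under the lowest HCC library. The mean was 23.9 ± 2.49 FPKM (SD, n = 3) in HCC and 4.75 ± 1.49 FPKM in TAE, or 19.9% of the HCC mean. The log2 change, TAE minus HCC, was -2.41 ± 0.20 (SE) in edgeR's fit, and 10 of the 14499 genes fitted had a lower one. These values rest on 358 to 469 counts per HCC library and 70 to 132 per TAE library. The table places the gene (ENSRNOG00000017899) on the plus strand of chromosome 5, 157801163 to 157813756. Its close relative Akr7a2, which lies outside the list of 9, stood at 16, 19.1 and 18.7 FPKM in HCC and 13.4, 12.9 and 20.7 FPKM in TAE. For Akr7a2 the groups overlapped and the log2 change was -0.21 ± 0.28 (edgeR adjusted p = 0.657). How reads shared by these similar genes were counted is not given, so both levels are uncertain as single genes.

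Ephx1 encodes the microsomal epoxide hydrolase, which opens epoxides of drugs and carcinogens to diols, and it was the most abundant gene of the list in both groups. Its level was 293, 216 and 255 FPKM in HCC 1 to 3 and 126, 126 and 112 FPKM in TAE 1 to 3. The groups did not overlap, and the TAE libraries lay closer together than the HCC libraries. The mean went from 255 ± 38.8 to 121 ± 8.04 FPKM (47.6% of HCC), a log2 change of -1.12 ± 0.15. Ephx1 (ENSRNOG00000003515) lies on the minus strand of chromosome 13, 99271366 to 99300579. Nqo1 encodes NAD(P)H quinone dehydrogenase 1, which reduces quinones to hydroquinones and is the usual readout of NRF2 activity. It stood at 50.2, 43.5 and 45.2 FPKM in HCC and 24.5, 46.3 and 32 FPKM in TAE. TAE 1 and TAE 3 were under every HCC library, and TAE 2 was within the HCC range. The mean was 46.3 ± 3.47 FPKM in HCC and 34.2 ± 11.1 FPKM in TAE (74% of HCC), with a log2 change of -0.50 ± 0.21. Nqo1 (ENSRNOG00000012772) lies on the plus strand of chromosome 19, 38422164 to 38437180.

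Osgin1, the oxidative stress induced growth inhibitor, was lower by a similar amount in all TAE libraries. It stood at 51.5, 47.2 and 56.8 FPKM in HCC 1 to 3 and at 23.7, 22.2 and 21.9 FPKM in TAE 1 to 3. The groups did not overlap, and the TAE libraries differed by less than the HCC libraries did. The mean was 51.8 ± 4.77 FPKM in HCC and 22.6 ± 0.946 FPKM in TAE (43.6% of HCC). The log2 change was -1.25 ± 0.14, with 108 of the fitted genes lower. Osgin1 (ENSRNOG00000014948) lies on the plus strand of chromosome 19, 52077109 to 52085496.

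**Figure D1:**
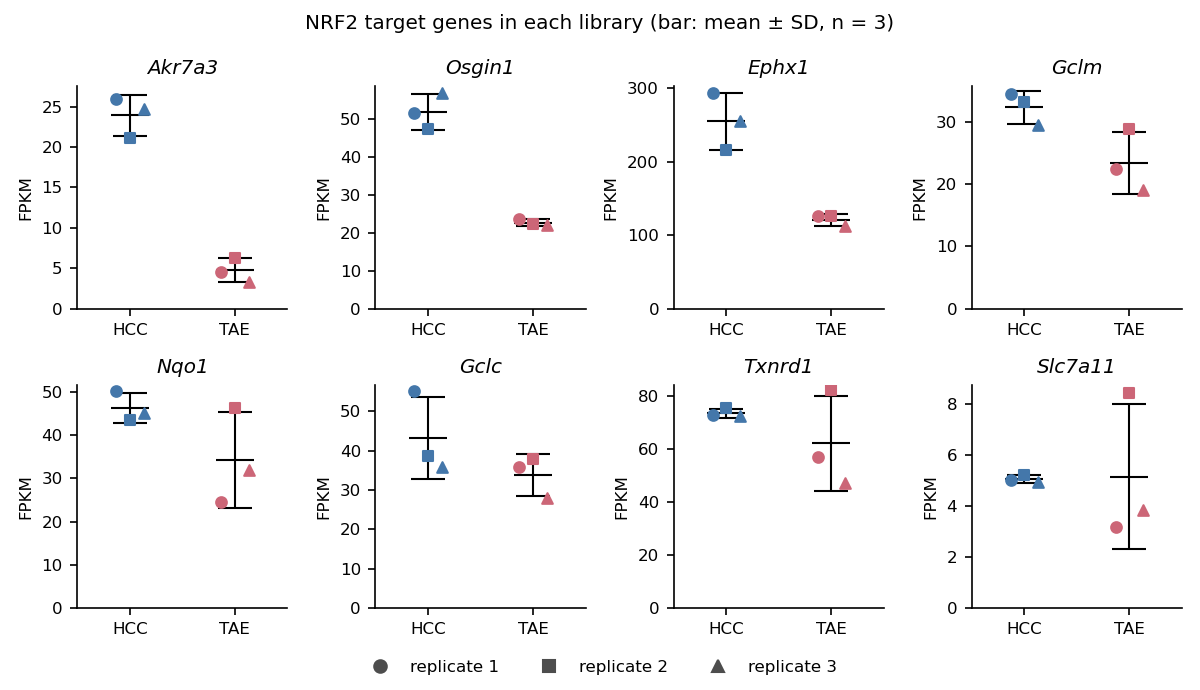
FPKM of 8 NRF2 target genes (vertical axes, each from 0) in HCC and TAE libraries (horizontal axes), with a point per library, its shape giving the replicate number, and bars for mean ± SD (n = 3). Akr7a3, Osgin1, Ephx1 and Gclm show no overlap between groups, and the TAE 2 square is the highest TAE point for Akr7a3, Gclm, Nqo1, Gclc, Txnrd1 and Slc7a11.

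The glutathione genes differed less between the groups. Slc7a11 encodes the light chain of the cystine and glutamate exchanger, which brings in the cystine from which glutathione is made. It stood at 5.03, 5.2 and 4.92 FPKM in HCC and 3.18, 8.42 and 3.84 FPKM in TAE. TAE 2 was above every HCC library and the other TAE libraries were under every one, so the means of 5.05 ± 0.141 and 5.15 ± 2.85 FPKM hide opposite differences. Its log2 change was -0.06 ± 0.30, and the gene (ENSRNOG00000010210) lies on the minus strand of chromosome 2, 139453774 to 139528162. Gclc, the catalytic subunit of glutamate-cysteine ligase, the rate-limiting enzyme of glutathione synthesis, stood at 55.3, 38.7 and 35.9 FPKM in HCC and 35.8, 38 and 27.9 FPKM in TAE. The groups overlapped, and the HCC mean was raised by HCC 1. Gclc went from 43.3 ± 10.5 to 33.9 ± 5.34 FPKM (78.3% of HCC), a log2 change of -0.41 ± 0.17, and the gene (ENSRNOG00000006302) lies on the plus strand of chromosome 8, 85059051 to 85097468.

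Gclm, the modifier subunit that raises the activity of the same ligase, stood at 34.5, 33.1 and 29.4 FPKM in HCC and 22.4, 28.8 and 19 FPKM in TAE. The groups did not overlap, though TAE 2 was close to HCC 3. The mean was 32.3 ± 2.61 FPKM in HCC and 23.4 ± 5 FPKM in TAE (72.4% of HCC), a log2 change of -0.53 ± 0.13. Gclm (ENSRNOG00000013409) lies on the plus strand of chromosome 2, 225827504 to 225847874. The ratio of Gclc to Gclm FPKM was 1.6, 1.17 and 1.22 in HCC and 1.6, 1.32 and 1.47 in TAE. These ratios overlapped between the groups, with 1.33 ± 0.238 in HCC and 1.46 ± 0.14 in TAE, so no shift between the subunits could be seen at this spread.

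Txnrd1 encodes the cytosolic thioredoxin reductase, a selenoprotein that uses NADPH to keep thioredoxin reduced. It stood at 72.8, 75.6 and 72.4 FPKM in HCC and 57, 82.3 and 47.2 FPKM in TAE. TAE 2 was above every HCC library, and TAE 1 and TAE 3 were under every one. The mean was 73.6 ± 1.77 FPKM in HCC and 62.2 ± 18.1 FPKM in TAE (84.5% of HCC), a log2 change of -0.32 ± 0.16. Txnrd1 (ENSRNOG00000009088) lies on the minus strand of chromosome 7, 26946125 to 26984400.

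By mean FPKM the order in HCC was Ephx1, Txnrd1, Osgin1, Nqo1, Gclc, Gclm, Akr7a3 and Slc7a11. Osgin1, Nqo1 and Gclc had overlapping ranges in HCC and are not ordered beyond their spread, while the ranges of the other neighbours did not overlap. In TAE the order was Ephx1, Txnrd1, Nqo1, Gclc, Gclm, Osgin1, Slc7a11 and Akr7a3. Osgin1 thus held the third place in HCC and the sixth in TAE, and Akr7a3 moved to the last place. In TAE the ranges of Nqo1, Gclc, Gclm and Osgin1 overlapped with a neighbour, as did those of Slc7a11 and Akr7a3. Spread between replicates differed by gene as well as by group. The coefficient of variation of FPKM in TAE was 55.5% for Slc7a11, 32.3% for Nqo1, 31.4% for Akr7a3 and 29.1% for Txnrd1, against 4.19% for Osgin1 and 6.63% for Ephx1. In HCC it was 2.41% for Txnrd1 and 24.2% for Gclc, and the median over all fitted genes was 9.8% in HCC and 25.3% in TAE.

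All 8 genes had a negative log2 change, where 53.1% of all fitted genes did, and their median was -0.51 against -0.03 over all genes. Slc7a11 is counted here at -0.06 ± 0.30, although its mean FPKM was slightly higher in TAE. The shift is not particular to this list. Of the 12 hepatocyte markers described below, 11 had a negative log2 change, with a median of -0.56. In edgeR's quasi-likelihood test over 14499 genes, 3.01% passed an adjusted p of 0.05 in either direction, 2.70% higher and 0.310% lower in TAE. Akr7a3, Ephx1 and Osgin1, 3 of the 8, were among those lower, and nothing is read from this count because the genes were chosen from this contrast. Without HCC 1, HCC 2, HCC 3 or TAE 1 the count was 0, and without TAE 2 it was 6, with Nqo1, Gclm and Txnrd1 added, where 9.56% of all genes passed as lower. The count over all genes moved in the same way, from 437 to at most 1 without any of those 4 libraries, to 3569 without TAE 2 and to 1226 without TAE 3. Every TAE FPKM was below every HCC FPKM for 4 of the 8 genes, against 5.54% of all genes. After TMM scaling, which divides each library by a factor set so that most genes do not differ, 7 of the 8 did not overlap, against 13.5% of all genes. Slc7a11 was the exception there. Txnrd1 was apart only narrowly, with TAE 2 at a log2 difference of -0.04 from the HCC mean, and in FPKM its groups overlapped.

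TAE 2 stood apart from the other TAE libraries in some of these genes, most in Slc7a11, while in Nqo1 it was TAE 1 that did. Relative to the HCC mean on the TMM-scaled log2 CPM scale (counts scaled for depth), Slc7a11 was at -0.76, 0.53 and -0.26 in TAE 1 to 3. On that scale Txnrd1 was at -0.46, -0.04 and -0.50, Gclm at -0.62, -0.36 and -0.63, and Nqo1 at -1.01, -0.20 and -0.39. For these 4 genes TAE 2 was nearest to or above the HCC level. Akr7a3 was at -2.44, -2.10 and -2.66, Osgin1 at -1.22, -1.42 and -1.10, Ephx1 at -1.10, -1.21 and -1.04, and Gclc at -0.34, -0.36 and -0.47. For Osgin1 and Ephx1, TAE 2 was the lowest of the TAE libraries on this scale, though not far from the others. TAE 2 had the highest FPKM of the TAE group for 6 of the 8 genes (46.9% of all genes) and the highest TMM-scaled level for 5 of the 8 (33.6% of all genes).

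**Figure D2:**
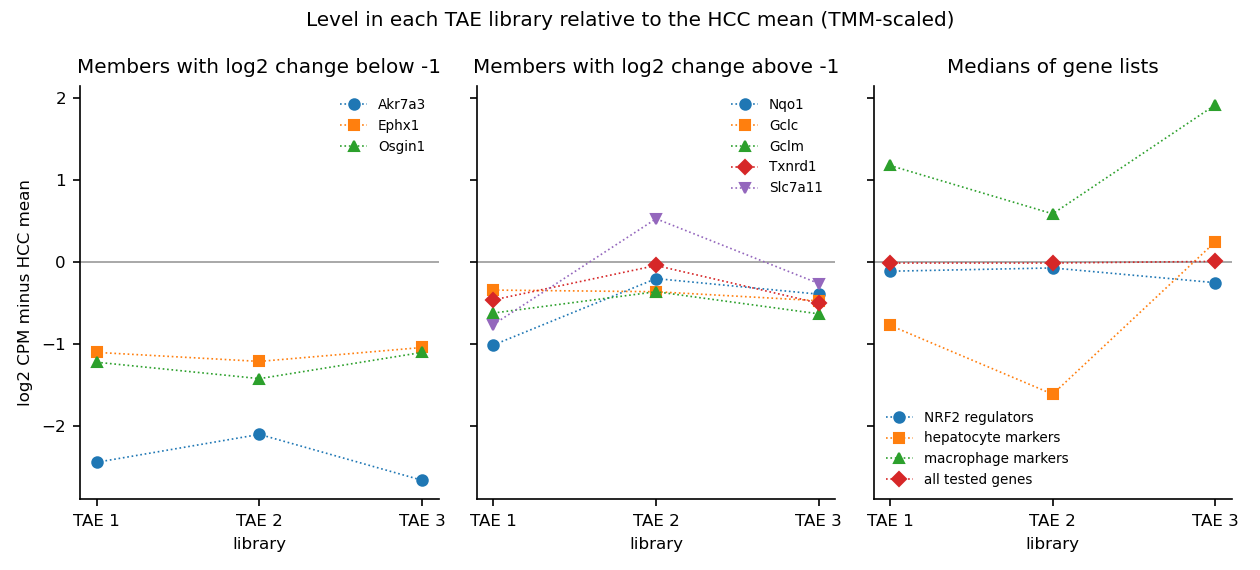
TMM-scaled log2 CPM minus the HCC mean (vertical axis) in each TAE library (horizontal axis), for the genes with log2 changes below -1 (left), the others (middle) and the medians of gene lists (right). Dotted lines only join points of 1 gene or list and imply no order. Akr7a3, Ephx1 and Osgin1 lie below -1 in every TAE library, while hepatocyte markers are at -0.77, -1.61 and 0.25.

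Markers of the cell types in liver also differed between these libraries. In bulk tissue, fewer cells of a type and less RNA per cell cannot be told apart. All 12 hepatocyte markers, among them Alb, Ttr and Hnf4a, were above 0 in every library. Their summed level was 23629 to 29135 FPKM in HCC and 10368 to 30387 FPKM in TAE, and all 12 were lowest of the TAE group in TAE 2. In edgeR's test 0 of the 12 passed, and 2 had an unadjusted p under 0.05 as lower, as 6.82% of all genes did. The median of the 12, relative to the HCC mean, was -0.77, -1.61 and 0.25 in TAE 1 to 3. Akr7a3 was lowest in TAE 3, the library with the highest hepatocyte marker sum. Osgin1 (-1.22, -1.42 and -1.10 in TAE 1 to 3) and Ephx1 (-1.10, -1.21 and -1.04) had another order after TMM scaling. Both were lowest in TAE 2 and highest in TAE 3, the same order as the hepatocyte median. In FPKM both were lowest in TAE 3. Akr7a3, Osgin1 and Ephx1 were each at least as low as -1.04 in TAE 3 after TMM scaling.

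The 12 macrophage markers summed to 1641 to 1919 FPKM in HCC and 4459 to 6818 FPKM in TAE, and 6 of the 12 passed as higher, where 2.70% of all genes did. Lyz2 (means of 801 FPKM in HCC and 3226 FPKM in TAE) and Gpnmb (173 and 882 FPKM) made up most of this sum. Every TAE FPKM was above every HCC FPKM for 9 of the 12, against 21.9% of all genes. Cd163, Marco and Cd5l overlapped, with log2 changes of -0.10, -0.05 and -0.13. Cholangiocyte markers summed to 81.6 to 123 FPKM in HCC and 215 to 368 FPKM in TAE (2 of 7 passed), and fibroblast markers to 445 to 707 and 1134 to 3001 FPKM (1 of 7 passed). Lymphocyte markers summed to 111 to 157 FPKM in HCC and 237 to 378 FPKM in TAE (0 of 8 passed), and endothelial markers to 45.1 to 54.9 and 51.6 to 78.7 FPKM (0 of 7 passed). At an unadjusted p under 0.05 there were 3 lymphocyte and 2 endothelial markers, all higher, as 15.9% of all genes were. The sums lean on single genes. Cd8a and Cd4 made up most of the lymphocyte sum, with means of 66.4 and 28.5 FPKM in HCC and 161 and 72 FPKM in TAE, whereas the T cell markers Cd3e (12.2 and 13.3 FPKM) and Cd3d (8.82 and 11.4 FPKM) overlapped between groups. The rise of the cholangiocyte sum turned mostly on Spp1, which other cells also express, at 19.5 FPKM in HCC and 158 FPKM in TAE (edgeR adjusted p = 0.0982). Anxa4, the largest part in HCC, was at 62.7 and 110 FPKM and passed (edgeR adjusted p = 0.0438). Cftr also passed, at 0.273 and 1.37 FPKM (edgeR adjusted p = 0.0417). Krt19 and Epcam were higher in every TAE library but did not pass. Sox9 and Krt7 overlapped, Krt7 at 4.81 and 4.46 FPKM. These marker genes were singled out after their values were seen. No marker was at 0 in all libraries. The part of these cell types in the levels of the NRF2 targets was not tested.

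The regulators of the pathway did not pass the test, which 3.01% of all genes passed. Nfe2l2, which encodes NRF2 itself, stood at 86.7, 76.5 and 77.9 FPKM in HCC and 88.2, 80.5 and 80.3 FPKM in TAE. The libraries of the groups were interleaved, with means of 80.4 ± 5.52 and 83 ± 4.5 FPKM and an edgeR adjusted p of 0.999. The SE of its log2 change was 0.14, and changes well above an SE could also be missed. The target Taldo1, for example, did not pass at 0.41 ± 0.12 (edgeR adjusted p = 0.105). NRF2 protein was not measured. Keap1, which encodes the inhibitor, stood at 10.2 ± 0.595 FPKM in HCC and 11.7 ± 2.54 FPKM in TAE, and its log2 change was 0.17 ± 0.24 (edgeR adjusted p = 0.668). Sqstm1, the autophagy receptor p62, which can pull KEAP1 away from NRF2 and is itself a target, stood at 225, 227 and 262 FPKM in HCC and 150, 212 and 192 FPKM in TAE. Its groups did not overlap in FPKM, and the log2 change was -0.42 ± 0.18 (edgeR adjusted p = 0.231).

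Among the other regulators, Cul3 and Rbx1, parts of the ubiquitin ligase, had log2 changes of -0.21 and -0.02. The small MAF partners Mafg, Maff and Mafk had -0.03, -0.30 and -0.36. Bach1, a repressor that competes for the same elements, had -0.17. Nfe2l1, a related factor, had -0.13, and Btrc, an adaptor of another ligase that degrades NRF2, had -0.06. Over the 11 regulators 9 log2 changes were negative and 2 positive, with a median of -0.13 and a range from -0.42 to 0.17. In edgeR's test 0 of 11 passed, where 3.01% of all genes did, so 0 of so few genes is near that share. At an unadjusted p under 0.05 there were 0, against 15.9% of all genes as higher and 6.82% as lower. DESeq2 also called 0 (8.90% of all genes higher and 1.68% lower), as did limma (4.27% and 0.466%). Mafk was the exception among the alternatives. Without TAE 2 its log2 change was -0.53 with an edgeR adjusted p of 0.0208, where 9.56% of all genes passed as lower. Its adjusted p over 14 alternatives ran from 0.0208 to 0.499.

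**Figure D3:**
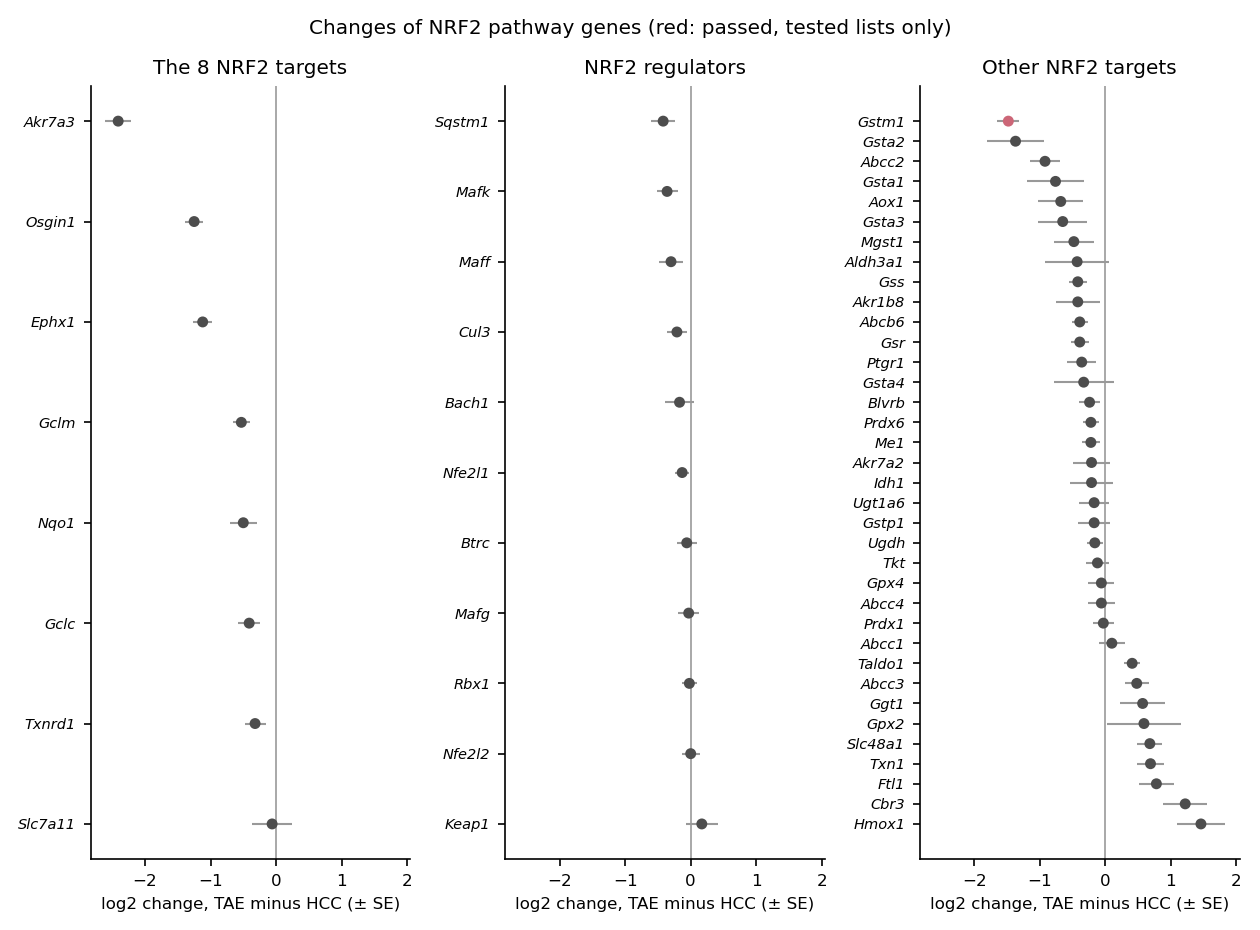
Log2 change, TAE minus HCC, with its SE (horizontal axes) for the 8 NRF2 targets, 11 regulators and the other NRF2 targets reported here (vertical axes, ordered by change), from edgeR's fit. Red marks a gene that passed in the lists that were tested, which is Gstm1 alone, while Hmox1 lies at 1.46 and Akr7a3 at -2.41.

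Other known NRF2 targets included genes on both sides. Of 41 such genes 39 were matched and 37 could be fitted, with 26 negative and 11 positive log2 changes and a median of -0.21 (53.1% negative and -0.03 over all genes). Every TAE FPKM was below every HCC FPKM for 6 of the 37 and above for 8 of the 37, where 5.54% of all genes lay below and 21.9% above. In edgeR's test 1 passed as lower and 0 as higher, where 0.310% and 2.70% of all genes did. At an unadjusted p under 0.05 there were 14, 8 higher and 6 lower, against 15.9% and 6.82% of all genes. DESeq2 called 5 higher (Hmox1, Txn1, Taldo1, Cbr3 and Slc48a1) and 3 lower (Gsta2, Gstm1 and Abcc2), where it called 8.90% of all genes higher and 1.68% lower. Hmox1 as higher and Gstm1 as lower were called by limma, with 4.27% and 0.466% of all genes. Without TAE 2, edgeR called 5 higher and 9 lower, against 14.6% and 9.56% of all genes. Without TAE 3 it called 1 higher and 6 lower, against 4.82% and 3.51% of all genes. Fth1, the ferritin heavy chain, is listed at 0 in all 6 libraries although liver cells express it widely, so its value is not used.

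Gstm1, a glutathione S-transferase of the mu class, was the target that passed. It stood at 608, 515 and 627 FPKM in HCC and 193, 228 and 225 FPKM in TAE, with every TAE library under every HCC library. From 583 ± 59.7 FPKM it fell to 215 ± 19.4 FPKM, and its log2 change was -1.48 ± 0.17 (edgeR adjusted p = 0.0388, from 1.18e-11 to 0.223 over 14 alternatives). The call was lost without any 1 of HCC 1, HCC 2, HCC 3 or TAE 1. Gsta2, of the alpha class, was at 21.9 ± 3.24 FPKM in HCC and 8.42 ± 4.66 FPKM in TAE, its log2 change being -1.37 ± 0.44 (edgeR adjusted p = 0.13). Gsta1 of the same class was at 136 ± 18.3 and 79.3 ± 44.4 FPKM, with -0.76 ± 0.43 (edgeR adjusted p = 0.321). These enzymes belong to families of similar genes, so single members are uncertain. Abcc2, which exports glutathione conjugates into bile, was at 31.9 ± 1.4 FPKM in HCC and 17.4 ± 5.69 FPKM in TAE, with a log2 change of -0.92 ± 0.23 (edgeR adjusted p = 0.0772). Aox1, an aldehyde oxidase, was at 53.8 ± 2.47 and 33.7 ± 13.6 FPKM, with -0.68 ± 0.34 (edgeR adjusted p = 0.284). TAE 3 bore on several of these: without it the log2 change was -2.05 for Gsta2 and -1.45 for Gsta1 (edgeR adjusted p = 0.014 for each) and -1.15 for Aox1 (0.0173). Over 14 alternatives the adjusted p ran from 0.014 to 0.342 for Gsta2, 0.014 to 0.573 for Gsta1 and 0.0173 to 0.537 for Aox1. Abcc2 passed without TAE 2, at -0.71 (edgeR adjusted p = 0.0252, from 0.00741 to 0.273 over the alternatives).

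Heme oxygenase 1 (Hmox1), which breaks down heme and is under BACH1 as well as NRF2, was on the other side. It stood at 63.2, 74.5 and 67.3 FPKM in HCC and 167, 117 and 276 FPKM in TAE, with every TAE library above every HCC library. The mean was 68.3 ± 5.72 FPKM in HCC and 187 ± 81.2 FPKM in TAE, and the log2 change of 1.46 ± 0.37 did not pass (edgeR adjusted p = 0.0804). It passed at 0.95 without TAE 3 (edgeR adjusted p = 0.0294) and at 1.75 without TAE 2 (0.0087), and over 14 alternatives the adjusted p ran from 0.00255 to 0.273. TAE 3 was the highest library for both Hmox1 and the summed macrophage markers, and TAE 2 the lowest of the TAE group for both. The same held for the summed hepatocyte and lymphocyte markers, so this order is not particular to macrophages. The part of any of these cell types in the Hmox1 level was not tested. Cbr3, a carbonyl reductase, was at 1.83 ± 0.416 FPKM in HCC and 4.39 ± 1.26 FPKM in TAE, with a log2 change of 1.22 ± 0.34 (edgeR adjusted p = 0.101). Ftl1, listed under the symbol of the ferritin light chain, was at 7.91 ± 0.645 and 13.8 ± 3.15 FPKM, with 0.78 ± 0.27 (edgeR adjusted p = 0.154). This entry runs from 152325871 to 152326778 on chromosome 5, 908 exonic bases without an intron, and held 94 to 263 counts per library. How reads shared with similar sequences were counted is not given, so the level and calls of Ftl1 are uncertain. Txn1, the thioredoxin that Txnrd1 reduces, was at 795 ± 96.9 FPKM in HCC and 1305 ± 215 FPKM in TAE, with 0.69 ± 0.21 (edgeR adjusted p = 0.125). Its groups did not overlap in FPKM, while those of Txnrd1 did. Without TAE 2, Cbr3, Ftl1 and Txn1 passed at 1.47, 0.93 and 0.78 (edgeR adjusted p = 0.0135, 0.0472 and 0.0478), and without TAE 3, Ftl1 and Txn1 were at 0.48 and 0.46. Over 14 alternatives the adjusted p ran from 0.0135 to 0.33 for Cbr3, 0.0472 to 0.403 for Ftl1 and 0.047 to 0.368 for Txn1.

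Genes whose levels most resembled those of Akr7a3 and Osgin1 were found over the 6 libraries. The measure was the root mean square difference of log2 CPM centred on each gene, among 11729 candidate genes, so it takes in the difference between groups as well as the spread within them. The genes nearest to Akr7a3 were Cyp2c11 (0.311), Cyp2c24 (0.32), Gstm3l (0.373), Tmem125 (0.41) and Mettl7b (0.422). Cyp2c11 and Cyp2c24 are cytochrome P450 genes of the 2C family, Gstm3l is a glutathione S-transferase, Tmem125 a membrane protein and Mettl7b a methyltransferase. Cyp2c11 stood at 201, 186 and 162 FPKM in HCC and 37, 28.8 and 24.6 FPKM in TAE. Gstm3l stood at 51.6, 19.9 and 41 FPKM in HCC and 8.58, 10.5 and 4.03 FPKM in TAE, which like Akr7a3 is lowest in HCC 2 and highest of the TAE group in TAE 2. Osgin1 held place 25 in this order (0.636) and Ephx1 place 42 (0.679), while Nqo1, Gclc, Gclm, Txnrd1 and Slc7a11 held places from 926 to 4777.

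Osgin1 was nearest to Ephx1, with a root mean square difference of 0.136, the first of all candidates. Next came Gpd1 (0.138), the cytosolic glycerol-3-phosphate dehydrogenase, Gstm1 (0.168), Efna1 (0.199), an ephrin ligand, and Dhcr7 (0.213), the last enzyme of cholesterol synthesis. Gpd1 stood at 60.8, 68.4 and 68.6 FPKM in HCC and 36.8, 29.4 and 30.1 FPKM in TAE. Slc7a11 was the member least like Osgin1, at place 7453 with 0.711. Akr7a3 held place 5447 with 0.636, behind Gclm (place 290), Nqo1 (654), Gclc (1073) and Txnrd1 (1658). The same difference of 0.636 put Osgin1 at place 25 for Akr7a3, so a place depends on how many genes lie near the reference gene. The order is a description, and the libraries share the group difference through which the list was chosen.

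**Figure D4:**
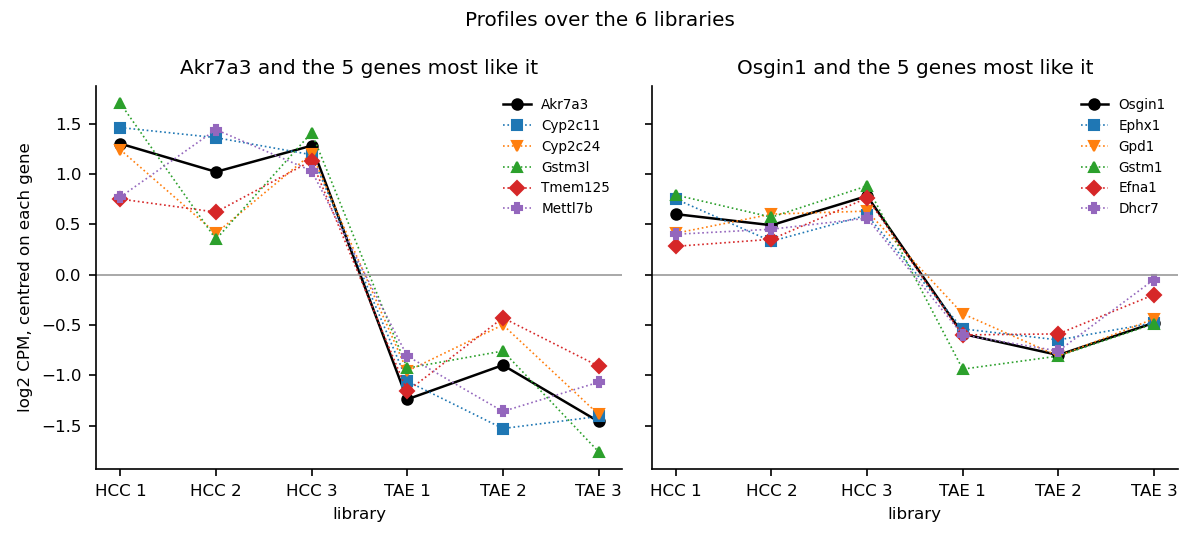
Log2 CPM centred on each gene (vertical axis) in the 6 libraries (horizontal axis) for Akr7a3 (left) and Osgin1 (right), in black, with the 5 genes nearest to each. Dotted lines only join points of 1 gene. The 5 neighbours of Osgin1 lie within a root mean square difference of 0.213, and those of Akr7a3 within 0.422.

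Total counts were 13448286 to 16604067 per library. Across genes, which are not independent replicates, log2 CPM of replicates correlated at 0.984 to 0.991 within HCC and 0.935 to 0.969 within TAE, lowest between TAE 2 and TAE 3. No 2 replicates agreed within sampling noise, with a chi-square per degree of freedom of 5.5 to 13.2 within HCC and 47.7 to 194 within TAE.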

How the data were processed

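Liver RNA of 6 rat libraries, grouped by their titles and descriptions, was made into poly(A)-selected, strand-marking libraries read as paired ends, per the labels' protocols. Per the file headers, the authors deposited 1 table with raw counts and FPKM for every gene in each library. The deposited FPKM equal the count scaled to exon length and library total (100% recomputed within 0.006). The submitters' processing notes name mRatBN7.2. Which aligner and counter were used, and whether strand was counted, is not given in the sources used here. In the table chromosome 1 has gene ends up to 282724300, so its build is unsettled, and its positions are printed as deposited and kept apart from the GRCr8 promoters of RefSeq.

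From the counts, edgeR 4.0.16 (R 4.3.3) fitted TAE minus HCC with TMM scaling, filterByExpr and the two-sided quasi-likelihood test, adjusted by Benjamini-Hochberg over 14499 genes, with a threshold of 0.05. The SE is the absolute log2 change divided by the square root of F, and the biological coefficient of variation was 0.24. Log2 CPM used a prior count of 2. Alternatives were other scalings and filters, DESeq2 1.42.0, limma 3.58.1 on log2(FPKM + 1) and log2(FPKM + 0.1), a replicate block, and each library left out in turn.

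The genes and lists were chosen with earlier results of these data known. Named are all listed genes and regulators, other targets that passed with the 4 largest rises and falls at a mean FPKM of at least 1, the 5 genes most like Akr7a3 and Osgin1 among those at that level, and cell type markers. Akr7a2 was named as the relative of Akr7a3, and any other gene after its values were seen. Of the other targets 1 gene is counted in the totals but not reported here. At these depths counting error is small for the listed genes and largest for Akr7a3 in TAE.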

Additional observations from a re-analysis of the deposited data

How the results depend on the processing

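The 437 genes called by edgeR became 720 with upper-quartile scaling, 829 without a filter on low counts, 1667 with DESeq2, 701 and 709 with limma (pseudocounts of 1 and 0.1), and 0 to 3569 with a library left out. With the replicate block 0 genes passed, 2984 at an unadjusted p under 0.05. The titles share replicate numbers and state no pairing. Deviations of same-numbered libraries correlated at 0.1, -0.209 and 0.0335, and not every library correlated best with its own number. With 3 libraries per group these correlations cannot decide whether libraries were paired. Other NRF2 targets called higher (0) became 1 without a filter, 5 with DESeq2, 1 with each limma fit and 0 to 5 with a library left out. Those called lower (1) became 3 with DESeq2, 0 with the replicate block and 0 to 9 with a library left out. Regulators called (0) became 0 to 1 with a library left out. Listed genes called (3) became 4 with DESeq2, with Gclm added, and 0 with the block.

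Over all 15 settings the log2 change stayed within -2.58 to -2.14 for Akr7a3, -1.30 to -1.15 for Osgin1 and -1.22 to -1.03 for Ephx1. It ran from -0.62 to -0.46 for Gclm, -0.67 to -0.30 for Nqo1, -0.51 to -0.22 for Gclc and -0.48 to -0.21 for Txnrd1. Slc7a11 ran from -0.49 to 0.19 and so has no settled sign. Regulators near 0 changed sign. Nfe2l2 was at -0.001 with a count of at least 10 in 3 libraries, -0.002 with DESeq2, -0.005 with the block and -0.05 to 0.09 with a library left out. Rbx1 was at 0.02 with upper-quartile scaling, 0.03 with each limma fit and -0.06 to 0.03 with a library left out, and Mafg at 0.01, 0.02 and -0.14 to 0.07. Keap1 ran from -0.12 to 0.34 and Btrc from -0.16 to 0.06 with a library left out. The cause of these shifts was not tested. Another scaling moved the median of all genes by at most 0.04.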

Other observations

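The 4 genes described first in this paragraph belong to the list of other NRF2 targets, and all genes in it were chosen after their values were seen. Akr1b8, an aldo-keto reductase, stood at 149, 128 and 140 FPKM in HCC 1 to 3 and at 70, 193 and 71.7 FPKM in TAE 1 to 3. Gstp1, the glutathione S-transferase that marks altered hepatocytes in rat liver carcinogenesis, stood at 304, 301 and 320 FPKM in HCC and 210, 440 and 219 FPKM in TAE. Ptgr1, a prostaglandin reductase, stood at 45.6, 48.2 and 46.6 FPKM in HCC and 28.4, 56.4 and 30.3 FPKM in TAE. Aldh3a1, an aldehyde dehydrogenase, stood at 4.85, 6.92 and 8 FPKM in HCC and 3.41, 10.3 and 2.24 FPKM in TAE. In FPKM, each of these 4 genes was above every HCC library in TAE 2 and under every one in TAE 1 and TAE 3. Txnrd1 and Slc7a11 in the list of 9, Tkt and Prdx6 among the other targets, and the regulators Maff and Mafk did the same. How many of all genes show this pattern was not counted. TAE 2 had the highest FPKM of the TAE group for 46.9% of all genes. On the TMM-scaled log2 CPM scale, TAE 2 minus the HCC mean was 0.27 for Akr1b8, 0.31 for Gstp1, 0.07 for Ptgr1 and 0.47 for Aldh3a1. It was 0.53 for Slc7a11, 0.16 for Tkt, -0.04 for Txnrd1, -0.11 for Prdx6, -0.005 for Maff and -0.07 for Mafk. The groups overlap in FPKM for all of these genes, and the cause was not tested.

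Another 2 genes of the same list, also chosen after their values were seen, lay higher in every TAE library than in any HCC library, and neither passed the test. Taldo1, the transaldolase, was at 145 ± 8.51 FPKM (SD, n = 3) in HCC and 201 ± 22 FPKM in TAE (edgeR adjusted p = 0.105), and Slc48a1, a heme transporter of lysosomes, at 23 ± 0.0173 and 37.7 ± 6.68 FPKM (edgeR adjusted p = 0.106). Tkt, the transketolase of the same sugar pathway as Taldo1, overlapped between groups, at 335 ± 12.9 and 325 ± 91 FPKM.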
